A study of Mus musculus with 20 samples.

Results

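The 20 compounds described here carry N-acetylneuraminic acid (Neu5Ac, the common sialic acid) linked α2-3 to galactose or N-acetylgalactosamine (GalNAc), with no fucose. They were chosen by structure from the 419 compounds printed on a glycan array: the listed structure had to hold an α2-3 Neu5Ac and no O-sulfate, fucose, Neu5Gc, α2-6 Neu5Ac or α2-8 linkage. Each of 20 arrays was incubated with the serum of 1 untreated BALB/c mouse, an inbred strain, aged 10 weeks and kept free of specific pathogens, from 13 females and 7 males. Serum was diluted 1:15, and bound IgG and IgM were detected together with a biotinylated anti-mouse antibody and Cy5-streptavidin, so that the antibody classes cannot be told apart. The arrays labelled for the females BALB/c-44 and BALB/c-45 held identical values in all 2664 spots and were counted as 1 mouse, which left 19 mice (12 females and 7 males). A level is the median fluorescence of the 6 spots of a compound, in relative fluorescence units (RFU) with the local background left in, and a compound was called bound in a mouse at 4000 RFU or above, the limit used in the study.

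Sialic acids cap the outer ends of many glycoprotein and glycolipid chains of vertebrate cells, and the α2-3 linkage is made by a family of sialyltransferases. Most chains in this group are self structures of the mouse: sialyl-lactosamines of N- and O-glycans, the sialyl-T antigen of mucins, and the head groups of gangliosides. Sialic acid-binding lectins of immune cells (Siglecs), selectins and viral haemagglutinins read the linkage and the sugars beneath it. Mouse cells can also convert Neu5Ac to Neu5Gc, a form that humans do not make.

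The structures are shown because the comparisons turn mostly on single changes in them. In each, α and β are written a and b, and the chain is attached to the slide through an aminoethyl (sp2), aminopropyl (sp3) or glycyl (sp4) spacer.
3'SLN, sialyl-lactosamine of type 2: Neu5Aca2-3Galb1-4GlcNAcb-sp3
3'SiaLeC, its type 1 isomer: Neu5Aca2-3Galb1-3GlcNAcb-sp3
Sialyl-T of O-glycans: Neu5Aca2-3Galb1-3GalNAca-sp3
3-SiaTn: Neu5Aca2-3GalNAca-sp3
GM4, the ganglioside head group: Neu5Aca2-3Galb-sp3
3'SL-sp3, sialyl-lactose, the GM3 head group: Neu5Aca2-3Galb1-4Glcb-sp3
3'SL-sp4, the same sugar on the glycyl spacer: Neu5Aca2-3Galb1-4Glcb-sp4
3'SL-Cit, the same with citrulline: Neu5Aca2-3Galb1-4Glcb-sp4-Cit
3'SL-Ala, 3'SL-Ile, 3'SL-Nle, 3'SL-Phe, 3'SL-Trp and 3'SL-Asn: Neu5Aca2-3Galb1-4Glcb-dipeptide
GM2 head group: Neu5Aca2-3(GalNAcb1-4)Galb1-4Glcb-sp4
GM1 head group: Galb1-3GalNAcb1-4(Neu5Aca2-3)Galb1-4Glcb-sp4
3'SLN-LN-sp2, a sialylated lactosamine dimer: Neu5Aca2-3Galb1-4GlcNAcb1-3Galb1-4GlcNAcb-sp2
3'SLN-LN-sp3, the same chain: Neu5Aca2-3Galb1-4GlcNAcb1-3Galb1-4GlcNAcb-sp3
Branched SiaGal, GlcNAc with a pair of sialyl-Gal arms: (Neu5Aca2-3Galb1)2-3,4-GlcNAcb-sp3
6-Su-3'SLN, with a sulfate on galactose: Neu5Aca2-3-(6-Su)Galb1-4GlcNAcb-sp2

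6-Su-3'SLN is a sulfated glycan that met the rule only because its sulfate is spelled without the letter O, so counts are also given without it. The amino acids of the dipeptide compounds come from the study's list for human sera, since the mouse table gives them 1 structure. That list also gives 3'SLN-LN-sp3 an α2-6 linkage, against α2-3 in the mouse table, and its values here carry that doubt. The sialylated milk sugars LSTa and LSTd, spelled with a letter missing from Neu5Ac, fell outside the rule, and their highest levels were 885 and 487 RFU.

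Spots of printing buffer had medians between 93.5 and 2045 RFU per array, and the trehalose negative control between 55 and 914 RFU. The arrays fell into sets by the ratio of an undisclosed peptide to a linear glycine peptide: 10 arrays had ratios from 0.0109 to 0.0561 (5 females, 5 males) and 9 had ratios from 0.631 to 1.86 (7 females, 2 males). No label names these sets. The 10 arrays were brighter, with array medians from 603 to 1505 RFU, against 126.5 to 412 RFU on the other 9, so values within each set are given beside the comparisons described where they differ in direction. Spots that the scanner did not find made up 3.83% to 21.2% of an array among the brighter 10, and 19.9% to 51.3% among the other 9.

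Some of the α2-3 Neu5Ac glycans were bound at the limit in at least 1 mouse, a share not far below that of the whole array. Each was bound by fewer than 10 of the 19 sera, as were most compounds of the array, where 34 of 419 were bound by 10 or more. Of the 20 compounds, 9 (45%) were bound in at least 1 mouse (8 of 19 without 6-Su-3'SLN), against 54.9% of the 419 compounds. In at least 2 mice 6 were bound (5 of 19 without 6-Su-3'SLN), against 39.4%. None had a median over mice of 4000 RFU or above, as was the case for most compounds of the array, where 34 of 419 had. Over all combinations of a compound and a mouse, 32 of 380 were at or above the limit (8.42%), against 13.6% over the whole array. Without 6-Su-3'SLN, 23 of 361 combinations were (6.37%). The 12 compounds with α2-6 Neu5Ac and no fucose reached the limit in 6 of 228 combinations (2.63%). At least 1 of the 20 compounds was bound in 14 of 19 mice, and in 10 of 19 when 6-Su-3'SLN was left out.

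**Figure D1:**
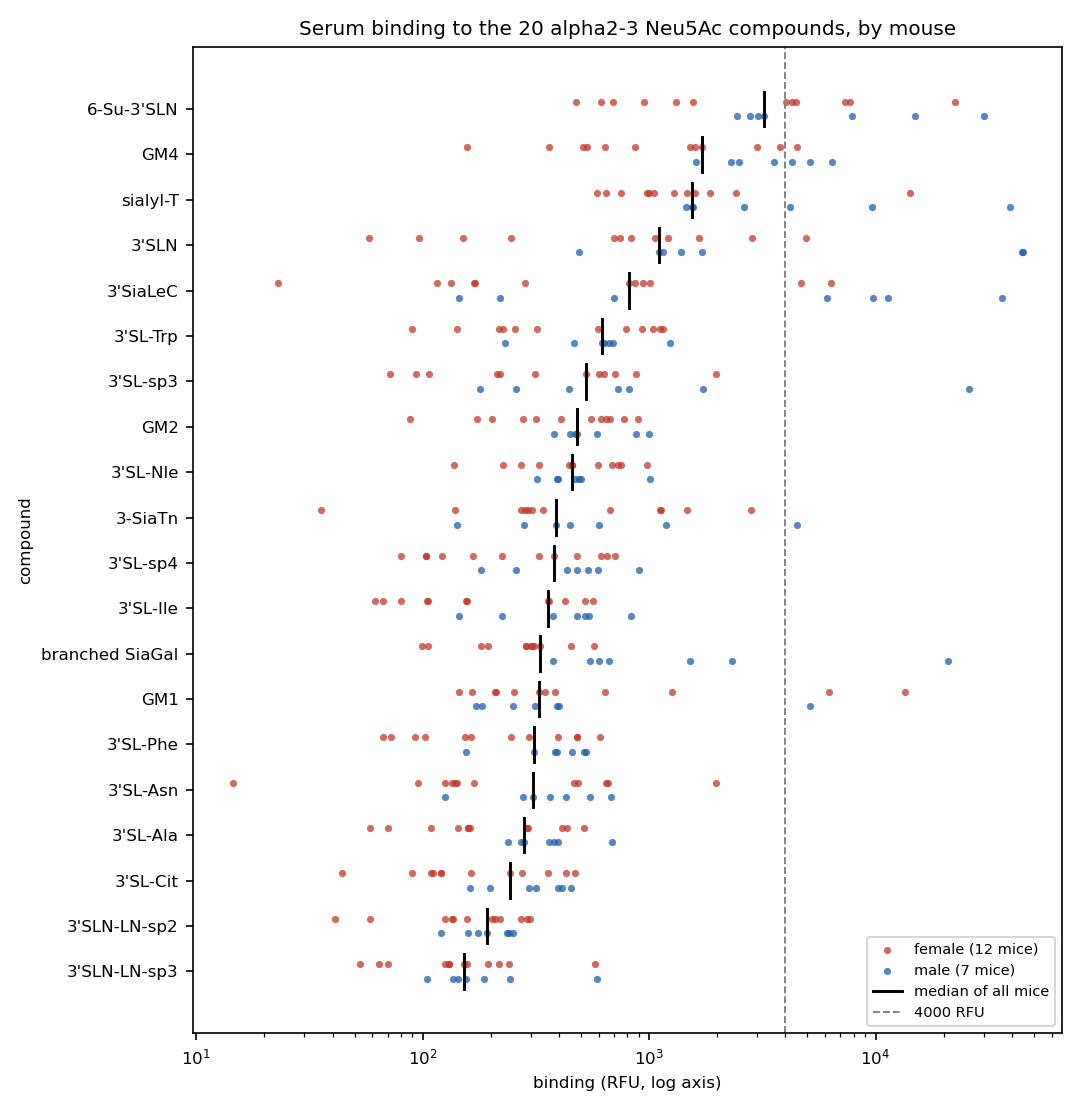
Binding to each of the 20 compounds (rows, ordered by median) in RFU on a log axis, with 1 point for each of 12 female and 7 male mice, a bar at the median of all mice and a dashed line at 4000 RFU. Medians lie between 152 and 3219 RFU, and 9 compounds have at least 1 mouse at or right of the line.

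The type 2 and type 1 sialyl-lactosamines 3'SLN and 3'SiaLeC differ only in how galactose is joined to GlcNAc. 3'SLN was bound in 3 mice, at 44601 RFU in BALB/c-82, 44429 RFU in BALB/c-106 and 4912 RFU in BALB/c-88. In BALB/c-88 the 6 spots ran from 1278 to 6964 RFU, with 3 at or above the limit. The other 16 mice lay between 58 and 2844 RFU, so that the highest pair of sera stood far apart from the rest. 3'SiaLeC was bound in 6 mice, at 36138 RFU in BALB/c-106, 11327 RFU in BALB/c-107, 9789 RFU in BALB/c-104, 6364 RFU in BALB/c-70, 6086 RFU in BALB/c-48 and 4706 RFU in BALB/c-87. All 6 belonged to the 10 brighter arrays, and 3'SiaLeC did not pass 942 RFU on the other 9. Only BALB/c-106 bound both isomers. The difference of 3'SiaLeC minus 3'SLN was -0.35 log2 units (95% interval -1.69 to 0.96) and did not pass the permutation test described with the pairs (adjusted p = 0.646), with a mean of 0.95 on the brighter arrays and -1.80 on the others.

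Sialyl-T is a common cap of core 1 mucin O-glycans. It was bound in 4 mice, at 39291 RFU in BALB/c-106, 14195 RFU in BALB/c-87, 9661 RFU in BALB/c-82 and 4182 RFU in BALB/c-107, with a median of 1543 ± 564 RFU (median absolute deviation, n = 19). In BALB/c-107 the 6 spots of sialyl-T ran from 1830 to 6838 RFU, with 3 at or above the limit. Its lowest mouse was at 592 RFU, and it was above the buffer spots of its array in 19 of 19 mice, as was 6-Su-3'SLN and no other member. The shorter 3-SiaTn, which lacks the galactose, was bound in 1 mouse, BALB/c-56, at 4510 RFU, with a median of 388 RFU.

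Among the ganglioside head groups, GM4 had the broadest low signal. It was bound in BALB/c-56 (6403 RFU), BALB/c-48 (5145 RFU), BALB/c-70 (4517 RFU) and BALB/c-104 (4276 RFU), with a median of 1709 ± 1198 RFU, and it exceeded the buffer spots in 18 of 19 mice. These values lie close to the limit: in BALB/c-104 the 6 spots ran from 1460 to 12311 RFU, with 3 at or above it. GM1, a receptor of cholera toxin, was bound in BALB/c-70 (13539 RFU), BALB/c-19 (6236 RFU) and BALB/c-106 (5113 RFU). In BALB/c-19 its spots ran from 2399 to 35607 RFU. GM2, which lacks the terminal galactose of GM1, was bound in none, with a highest level of 1004 RFU.

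Sialyl-lactose, the sugar of GM3, was printed with several attachments, and they gave different levels in 1 serum. On the aminopropyl spacer (3'SL-sp3) it was bound in BALB/c-106 alone, at 25776 RFU, with all 6 spots between 18952 and 61033 RFU, and the next mouse was at 1975 RFU. On the glycyl spacer (3'SL-sp4) the same sugar gave 905 RFU in BALB/c-106, with spots from 398 to 8540 RFU, and a median of 381 RFU over mice. None of 3'SL-Cit and the 6 dipeptide compounds was bound in any mouse. Their medians ran from 243 RFU (3'SL-Cit) to 617 RFU (3'SL-Trp), and their highest single level was 1970 RFU, for 3'SL-Asn in BALB/c-70.

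The longer lactosamine chains were among the lowest of the group. The sialylated dimers 3'SLN-LN-sp3 and 3'SLN-LN-sp2 had medians of 152 and 193 RFU and were bound in no mouse, and 3'SLN-LN-sp3 exceeded the buffer spots of its array in 0 of 19 mice. Branched SiaGal, which holds the arms of both 3'SLN and 3'SiaLeC, was bound in BALB/c-106 at 20881 RFU, with spots from 14767 to 31463 RFU. Its next levels were 2320 RFU in BALB/c-104 and 1516 RFU in BALB/c-82, and its median was 330.5 RFU.

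The sulfated 6-Su-3'SLN was the most widely bound of the 20, in 9 of 19 mice (47.4%, exact 95% interval 24.4% to 71.1%), and had the highest median, 3219 ± 2265 RFU. Its highest levels were 30205 RFU in BALB/c-82, 22360 RFU in BALB/c-42 and 14908 RFU in BALB/c-48. The other 6 mice at or above the limit lay between 4037 and 7847 RFU, near enough to it that 5 of them had spots on both sides. A compound listed with the same sugar and an O-sulfate on the sp3 spacer (galactose-sulfated 3'SLN, outside the rule) was bound in 7 mice, 5 of them also positive for 6-Su-3'SLN. BALB/c-106 had 3018 RFU on 6-Su-3'SLN and 28413 RFU on the sp3 form, and BALB/c-48 had 14908 and 1847 RFU on them.

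Binding in single sera differed between close structures. BALB/c-106 bound 6 of the 20 compounds (sialyl-T, 3'SL-sp3, 3'SLN, 3'SiaLeC, GM1 and branched SiaGal), against 20.8% of all 419 compounds, and BALB/c-82 bound 3 (sialyl-T, 3'SLN and 6-Su-3'SLN), against 12.4%. The serum of BALB/c-106 gave 44429 RFU on 3'SLN and 27329 RFU on its Neu5Gc form. It also bound the forms of 3'SLN with fucose α1-3 (sialyl Lewis X, SiaLeX, 30433 RFU) and fucose β1-3 (33800 RFU). With a sulfate on galactose the level was 28413 RFU in this serum, whereas a sulfate on GlcNAc gave 2316 RFU. Lactosamine without sialic acid (LN) gave 672 RFU, and the α2-6 isomer 6'SLN gave 531 RFU.

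BALB/c-82 had nearly the same level on 3'SLN but a different pattern around it. The 3'SLN spots ran from 16841 to 61084 RFU in BALB/c-106 and from 25598 to 61045 RFU in BALB/c-82. Of the 6 spots, 3 in BALB/c-106 and 2 in BALB/c-82 held saturated pixels. The serum of BALB/c-82 gave 220 RFU on the type 1 isomer 3'SiaLeC and 180 RFU on 3'SL-sp3, where glucose replaces GlcNAc. The Neu5Gc form of 3'SLN gave 865 RFU and SiaLeX gave 150 RFU. Of the 6 spots in this serum, the scanner did not find 5 for 3'SiaLeC, 3 for 3'SL-sp3 and 4 for SiaLeX. Galactose-sulfated 3'SLN gave 61495 RFU, a level at which 5 of 6 spots held saturated pixels. A dimeric display of 3'SLN (outside the rule) was bound at 30537 RFU in BALB/c-82 and was at 243 RFU in BALB/c-106. In BALB/c-106 this level was under the buffer spots, and the scanner did not find 4 of the 6 spots. These are single sera, with 6 spots a compound and no repeat array, so that no test between them was made. The array of BALB/c-106 also had the brightest buffer spots (2045 RFU), against 644 RFU for BALB/c-82, and the part of this in its levels was not tested.

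**Figure D2:**
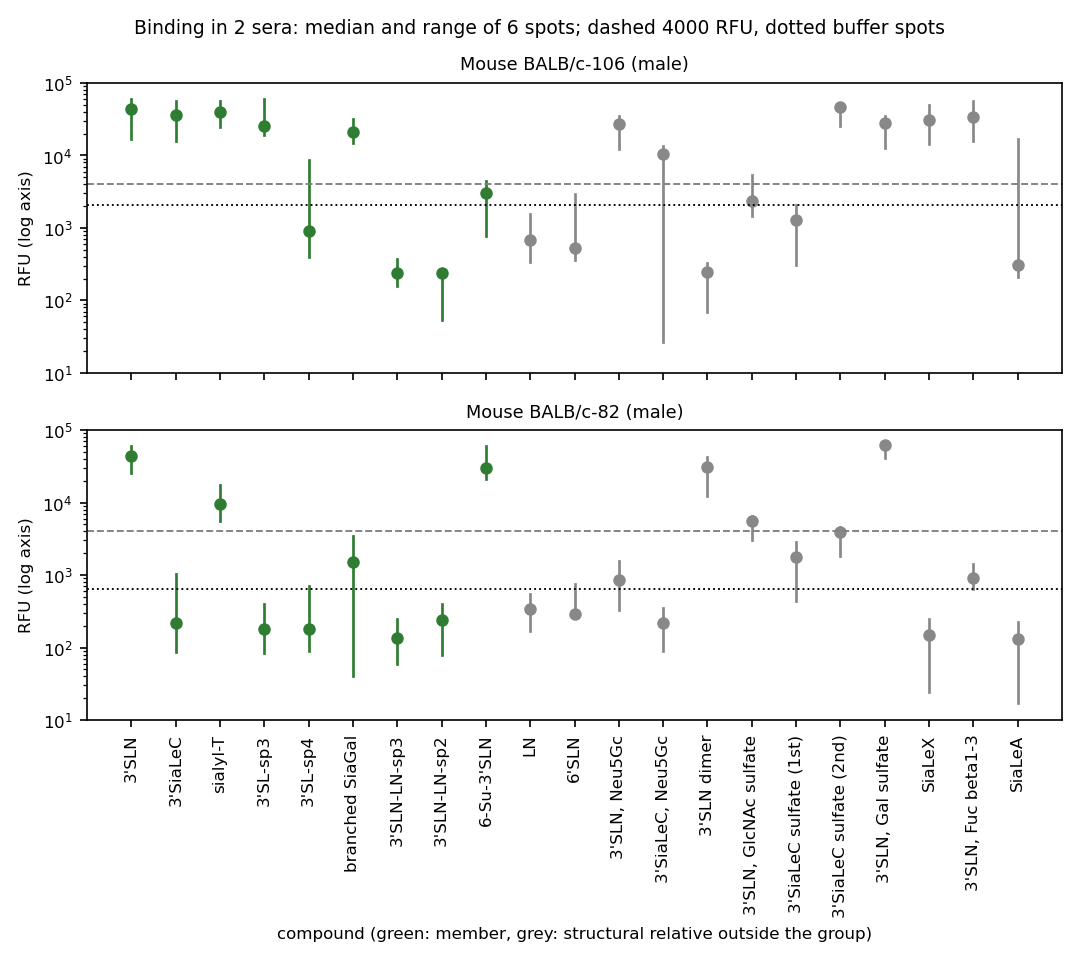
Median (point) and range (line) of the 6 spots of each compound in RFU on a log axis, in the sera of mice BALB/c-106 (upper) and BALB/c-82 (lower), with the chosen compounds in green and structural relatives in grey (dashed line, 4000 RFU; dotted line, buffer spots). On 3'SLN the sera are at 44429 and 44601 RFU, while on 3'SiaLeC they are at 36138 and 220 RFU and on 3'SL-sp3 at 25776 and 180 RFU.

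To compare structures over all mice, 51 pairs that differ by 1 named change in the listed structure were tested on the within-mouse difference in log2 RFU, after values under 100 RFU were raised to that level. The change between 3'SiaLeC and sialyl-T, GlcNAcb in place of GalNAca, alters the sugar and also its α or β form. The permutation test used 100000 random sign flips, two-sided, with p-values adjusted over the 51 pairs, and 33 pairs passed at 0.05, 18 with the chosen compound higher and 15 with it lower. Intervals are for a single pair, and many pairs share 3'SLN, 3'SiaLeC or 3'SL-sp4. As background is part of RFU, a difference between compounds that both lie under the buffer spots is a difference in fluorescence and no measure of antibody. All 33 differences that passed were smaller when values were raised to the buffer spots of the array, 19 of them by over 1.5 times. In 14 of the 51 pairs, 2 of which passed, the sets of arrays had means of opposite sign.

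**Figure D3:**
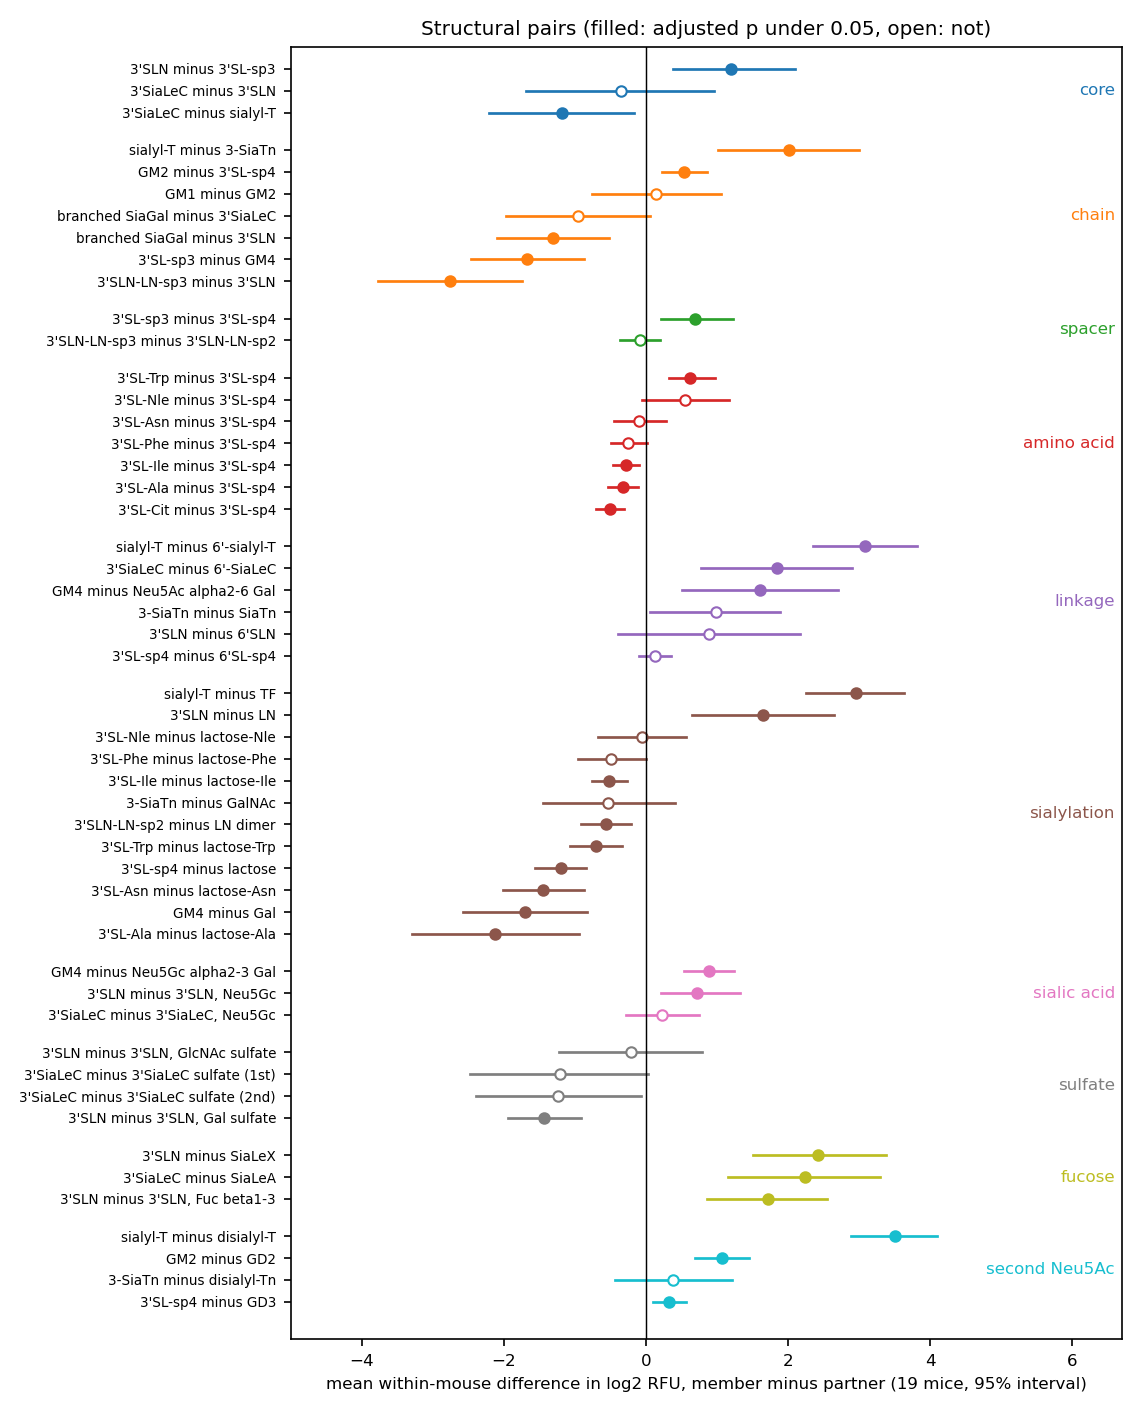
Mean within-mouse difference in log2 RFU of member minus partner for 51 structural pairs over 19 mice, with the 95% interval of the sign-flip test, grouped by the kind of change (filled points passed at adjusted p under 0.05). All 3 fucose pairs and 3 of 4 pairs with a second Neu5Ac passed to the right of 0, while 7 sialylation pairs passed to the left of it.

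The linkage of Neu5Ac was compared in 6 pairs, and α2-3 was higher in the 3 that passed. Sialyl-T had a median of 1543 RFU, against 337 RFU for its α2-6 isomer, and was higher in 19 of 19 mice. The difference was 3.09 log2 units (2.35 to 3.82, adjusted p = 0.00017), or 2.18 after values were raised to the buffer spots of the array. 3'SiaLeC exceeded its α2-6 isomer by 1.85 (0.78 to 2.90, adjusted p = 0.00259), with means of 3.07 on the brighter arrays and 0.49 on the others. The difference was 1.33 with values raised to the buffer spots, and both compounds lay at or under those spots in 9 of 19 mice. GM4 exceeded Neu5Acα2-6Gal by 1.60 (0.51 to 2.71, adjusted p = 0.014), although the α2-6 compound was at 46981 RFU in BALB/c-106 and 23808 RFU in BALB/c-104. This call was lost when values were raised to the buffer spots (1.14, adjusted p = 0.0629). 3'SLN and 6'SLN differed by 0.89 (-0.39 to 2.17, adjusted p = 0.219), and 3'SL-sp4 and its α2-6 isomer by 0.12 (-0.10 to 0.36, adjusted p = 0.389). 3-SiaTn missed the threshold against the α2-6 SiaTn, a tumour-associated antigen, at 0.99 (0.06 to 1.88, adjusted p = 0.0508), with SiaTn at 61307 RFU in BALB/c-65 alone.

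Compounds with and without α2-3 Neu5Ac were compared in 12 pairs, of which 2 passed with the sialylated compound higher and 7 with it lower, and 3 did not pass. On the T disaccharide (TF), sialyl-T exceeded TF by 2.95 log2 units (2.25 to 3.64, adjusted p = 0.00017) in 19 of 19 mice, and TF had a median of 273 RFU. On lactosamine, 3'SLN exceeded LN by 1.64 (0.65 to 2.64, adjusted p = 0.00221), and was higher in 14 of 19 mice. On galactose, GM4 was lower than bare galactose (difference -1.70, -2.57 to -0.83, adjusted p = 0.00259), with medians of 1709 and 6536 RFU, and 4 and 11 mice bound. All 4 mice positive for GM4 were positive for galactose. On lactose, 3'SL-sp4 was lower than lactose itself (difference -1.20, -1.56 to -0.84, adjusted p = 0.00017), or -0.68 with values raised to the buffer spots, and neither was bound in any mouse. On GalNAc, 3-SiaTn minus GalNAc did not pass (-0.53, -1.45 to 0.41, adjusted p = 0.287), with 1 and 2 mice bound and means of -1.70 on the brighter arrays and 0.76 on the others. The dipeptide forms were also lower with Neu5Ac in 4 of 6 pairs, with the widest gap for the Ala form: 3'SL-Ala was bound in 0 mice and lactose-Ala in 4, up to 52465 RFU, a difference of -2.13 (-3.29 to -0.94, adjusted p = 0.00017), or -1.39 with values raised to the buffer spots. The differences were -1.44 for the Asn form, -0.70 for Trp and -0.51 for Ile, with no mouse bound by either compound, and the Phe and Nle forms did not pass. With values raised to the buffer spots the differences were -0.76 for Asn, -0.51 for Trp and -0.17 for Ile. Both Ile compounds lay at or under the buffer spots in 12 of 19 mice. The sialylated and bare lactosamine dimers on sp2 also passed (difference -0.57, adjusted p = 0.00667), but both lay at or under the buffer spots in 16 of 19 mice, and the mean was -1.12 on the brighter arrays and 0.05 on the others. With values raised to the buffer spots this difference was -0.04 and did not pass.

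Core and chain were compared in 10 pairs, of which 7 passed. With GlcNAc beneath the galactose, 3'SLN exceeded its glucose form 3'SL-sp3 by 1.19 log2 units (0.38 to 2.10, adjusted p = 0.00269). With galactose beneath the sialic acid, sialyl-T exceeded 3-SiaTn by 2.01 (1.02 to 2.99, adjusted p = 0.00136). With glucose added to GM4 binding was lower, as 3'SL-sp3 differed from GM4 by -1.68 (-2.46 to -0.87, adjusted p = 0.00221). With 3'SLN lengthened by a lactosamine, 3'SLN-LN-sp3 minus 3'SLN was -2.75 (-3.77 to -1.75, adjusted p = 0.00017), or -1.56 with values raised to the buffer spots. As the study's lists disagree on the linkage of 3'SLN-LN-sp3, chain length and linkage may both differ in this pair. Branched SiaGal was lower than 3'SLN (difference -1.31, -2.10 to -0.51, adjusted p = 0.00487), while its difference from 3'SiaLeC did not pass (-0.96, -1.97 to 0.06, adjusted p = 0.082), with means of -2.38 on the brighter arrays and 0.62 on the others. GM2 exceeded 3'SL-sp4 by 0.53 (0.22 to 0.86, adjusted p = 0.00269) with no mouse bound by either (0.20 with values raised to the buffer spots, and 0.48 without passing when spots not found were left out). GM1 minus GM2 did not pass (0.14, -0.76 to 1.06, adjusted p = 0.778), with means of -0.20 on the brighter arrays and 0.51 on the others. 3'SiaLeC passed narrowly below sialyl-T (difference -1.19, -2.20 to -0.16, adjusted p = 0.0423), with means of 0.34 on the brighter arrays and -2.88 on the others, and leaving out any of 12 of the 19 mice ended the call.

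The attachment to the slide was compared in 9 pairs, of which 5 passed. The aminopropyl form 3'SL-sp3 exceeded the glycyl form 3'SL-sp4 by 0.69 log2 units (0.22 to 1.23, adjusted p = 0.00236), in 14 of 19 mice, by 0.46 with values raised to the buffer spots, and by 0.56 without passing when the mean of the spots was used. For the sialylated lactosamine dimer the aminopropyl and aminoethyl forms differed by -0.08 (-0.36 to 0.20, adjusted p = 0.633), with means of 0.17 on the brighter arrays and -0.36 on the others. The doubt about the linkage of the aminopropyl form applies here too. Of 7 compounds with an amino acid, 4 passed against 3'SL-sp4: 3'SL-Trp was higher (0.62, 0.32 to 0.97, adjusted p = 0.00017), or by 0.30 with values raised to the buffer spots. 3'SL-Cit (-0.50), 3'SL-Ala (-0.32) and 3'SL-Ile (-0.28) were lower. Those 3 pairs were at or under the buffer spots in 14 of 19 mice, and none passed when values were raised to them.

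Further substituents were compared on 3'SLN and 3'SiaLeC. Unfucosylated 3'SLN exceeded SiaLeX, a selectin ligand, by 2.42 log2 units (1.51 to 3.37, adjusted p = 0.00017), and the fucose β1-3 form by 1.71 (0.86 to 2.54, adjusted p = 0.00185). In RFU as measured, 3'SLN was above SiaLeX in 19 of 19 mice. In BALB/c-17 and BALB/c-38, however, both were under 100 RFU, so that these mice added no difference to the test. 3'SLN and SiaLeX both lay at or under the buffer spots in 5 of 19 mice. Unfucosylated 3'SiaLeC exceeded sialyl Lewis A (SiaLeA) by 2.24 (1.16 to 3.30, adjusted p = 0.000278), with means of 3.69 on the brighter arrays and 0.62 on the others. With values raised to the buffer spots the 3 fucose differences were 1.28 for SiaLeX, 0.97 for the β1-3 form and 1.39 for SiaLeA, and all 3 passed. Neu5Ac was higher than Neu5Gc on 3'SLN (0.71, 0.21 to 1.32, adjusted p = 0.00487) and on galactose, where GM4 exceeded Neu5Gcα2-3Gal (0.89, 0.54 to 1.25, adjusted p = 0.000255). 3'SiaLeC and its Neu5Gc form differed by 0.22 (-0.28 to 0.75, adjusted p = 0.474), with means of 0.87 on the brighter arrays and -0.49 on the others, and 5 of the 6 mice positive for 3'SiaLeC were positive for the Neu5Gc form. Without galactose sulfate, 3'SLN was lower than its sulfated form (difference -1.43, -1.94 to -0.92, adjusted p = 0.00017), with 3 and 7 mice bound. Sulfate on GlcNAc gave no difference past the threshold in the type 2 pair (-0.22, -1.22 to 0.79, adjusted p = 0.68).

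A pair of compounds is listed alike as 3'SiaLeC with a sulfate on GlcNAc, and neither differed from 3'SiaLeC past the threshold. The difference of 3'SiaLeC from the first listed was -1.21 (-2.47 to 0.03, adjusted p = 0.082) and from the second -1.23 (-2.39 to -0.07, adjusted p = 0.0508). On the brighter arrays these means were 0.17 and 0.12, against -2.74 for both on the others. However, the first was bound in 5 mice and the second in 6, with 1 mouse in common, and in BALB/c-106 they gave 1287 and 46219 RFU. The study's list for human sera gives the first a different, fucosylated structure.

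A second sialic acid was compared in 4 pairs, and fluorescence was lower with it in the 3 that passed, of which only the sialyl-T pair held a bound compound. Sialyl-T exceeded disialyl-T by 3.51 log2 units (2.89 to 4.10, adjusted p = 0.00017) in 19 of 19 mice, or by 2.19 with values raised to the buffer spots. GM2 exceeded GD2 by 1.08 (0.70 to 1.45, adjusted p = 0.00051), or by 0.31 with values raised to the buffer spots, and 3'SL-sp4 exceeded GD3 by 0.33 (0.11 to 0.56, adjusted p = 0.00736), but none of these 4 compounds was bound in any mouse, and 3'SL-sp4 and GD3 both lay at or under the buffer spots in 14 of 19. The difference from GD3 was 0.09 and no longer passed with values raised to the buffer spots, nor when spots that the scanner did not find were left out (0.26). For 3-SiaTn against disialyl-Tn the difference was 0.38 (-0.44 to 1.21, adjusted p = 0.398).

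Sexes were compared by limma over all 419 compounds. None of the 20 passed at adjusted p under 0.05, against 1.67% of the 419 compounds, while 6 had an unadjusted limma p under 0.05 and 5 an exact permutation p under 0.05. The level in females was lower for 19 of the 20 compounds (median difference, female minus male, -0.76 log2 units), much as over the whole array, where 385 of 419 were lower (median -0.75). Within the sets of arrays, 11 of the 20 were lower in females on the brighter arrays and 18 of the 20 on the others. After quantile normalization 11 of the 20 were lower in females, and the median over all compounds was 0.04. Among females, 7 of 12 were on the dimmer arrays, against 2 of 7 males.

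Branched SiaGal was the member nearest to the threshold. Its lowest, median and highest levels were 99, 293.8 and 573 RFU in females, against 375.5, 668 and 20881 RFU in males. The ranges overlapped, with 10 of 12 females below every male and 5 of 7 males above every female. The difference of -2.34 log2 units (SE 0.63) had an adjusted limma p of 0.0527. Its mean was -2.09 on the brighter arrays and -2.27 on the others, which held 2 males. Leaving out BALB/c-107, a male, gave an adjusted limma p of 0.0402, and without BALB/c-106 the difference was -1.67 (adjusted limma p = 0.107). For 3'SLN the median was 789 RFU in females and 1383 RFU in males, and the difference of -2.29 (SE 0.96, adjusted limma p = 0.228) was -0.54 on the brighter arrays and -4.39 on the others. The 2 males on those others were at 44601 RFU (BALB/c-82) and 1147 RFU (BALB/c-56). Leaving out BALB/c-82 gave -1.65 (adjusted limma p = 0.271), and leaving out BALB/c-106 gave -1.65 (adjusted limma p = 0.53). 3'SiaLeC had a female median of 547 RFU, against a male median of 6086 RFU, with 2 of 12 females and 4 of 7 males bound (-2.29, SE 1.06, adjusted limma p = 0.276), and the mean difference was -1.93 on the brighter arrays and 0.15 on the others.

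**Figure D4:**
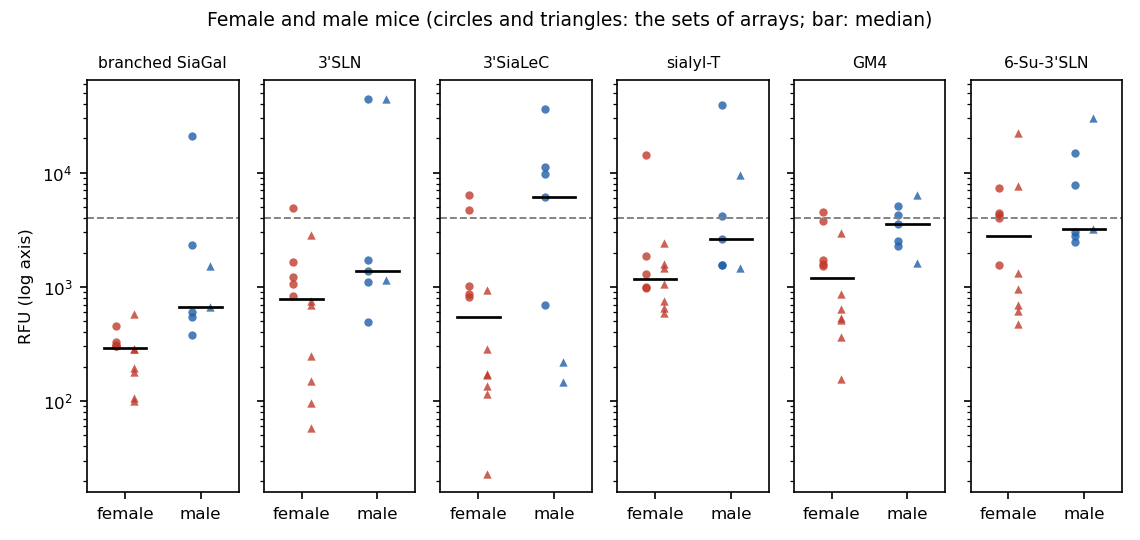
Levels of 6 bound compounds in RFU on a log axis, with 1 point for each of 12 females and 7 males, circles for the 10 brighter arrays, triangles for the other 9, a bar at the median and a dashed line at 4000 RFU. For branched SiaGal the male median (668 RFU) lies above the highest female (573 RFU), while the ranges overlap in all 6 panels.

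None of the 51 structural differences depended on sex after adjustment (exact permutation test over 50388 assignments, two-sided), and 5 had an unadjusted p under 0.05. The lowest was for linkage in type 2, 3'SLN minus 6'SLN, which averaged -0.43 log2 units in females and 3.13 in males (difference -3.56, exact p = 0.00129, adjusted p = 0.0658).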

How the data were processed

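The authors scanned each array with a ScanArray reader and deposited, for every spot, the mean Cy5 intensity, the intensity minus local background, the percent of saturated pixels and a flag of the spot finder, with no normalization between arrays. Their series table, deposited with the structures, also holds a pooled intensity and the number of positive animals for each compound, which were used only in the closing section. Members were found in that table by the rule given, after structures split over several lines were joined. Members, pairs and tests were chosen with earlier results of these data known. All members were named, and those bound in at least 1 mouse were given with their values, as were pairs that passed or held a bound compound. Of 55 pairs listed, 4 were left out because LSTa and LSTd do not meet the rule or the partner is not on the arrays.

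The median of 6 spots was taken per compound and array with Python 3.11.15, numpy 2.4.6 and pandas 2.3.3. Pairs were tested by sign flips, the sex dependence of pairs by exact permutation, and sexes by limma 3.58.1 in R 4.3.3 (lmFit, eBayes with trend, Benjamini-Hochberg adjustment over 419 compounds). Intervals of pairs used 10000 flips, are not adjusted, and shares of mice have exact intervals from scipy 1.17.1. The 2 sets of arrays were divided where the ratio of the peptides leaves its largest empty interval on the log2 scale. The tests were checked on simulated data drawn as independent normal values, without the extreme single sera or shared array brightness seen here. Alternatives were the mean of spots, subtraction of local background, both or neither array of mice BALB/c-44 and BALB/c-45, quantile normalization, a floor at the buffer spots, log2(RFU + 500), limits of 2000 and 8000 RFU, spots not found left out, and the sets of arrays as a term. Each mouse left out in turn was added after seeing the data. The precision is limited by 19 mice and 1 array each.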

Additional observations from a re-analysis of the deposited data

Results flagged for a closer look

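In the 7 males, 2 compounds had a single mouse whose gap to the next, as a share of the whole range on the log2 scale, was above the limit for 7 values. Chance alone would flag about 1 in 20 such groups, and 20 compounds were examined. GM1 was at 5113 RFU in BALB/c-106, against at most 400 RFU in the other 6 males (share of the range 0.751). 3'SL-Nle was at 1008 RFU in BALB/c-56, against 321 to 503 RFU in the other 6 males (share 0.607), which is under the limit of 4000 RFU.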

How the results depend on the processing

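The number of compounds bound in at least 1 mouse stayed between 7 and 11 under every alternative, with 11 for the mean of spots and 7 for a limit of 8000 RFU, and between 7 and 9 with 1 mouse left out: 7 without BALB/c-106 (3'SL-sp3 and branched SiaGal were bound in it alone) and 8 without BALB/c-56. The number with a median at the limit was 0, but 1 at a limit of 2000 RFU and 4 (sialyl-T, 3'SLN, 3'SiaLeC and 6-Su-3'SLN) when the mean over mice replaced the median, and it was 0 with any mouse left out. The number of pairs that passed was 33, from 27 (floor at the buffer spots, 26 shared with the 33) to 37 (background subtracted), and from 32 to 35 with 1 mouse left out. The number of compounds past the threshold between sexes was 0, but 1 (branched SiaGal) for the mean of spots, for mice BALB/c-44 and BALB/c-45 as 2 mice, and for spots not found left out, and from 0 to 1 with 1 mouse left out. Over all settings other than leaving out a mouse, the 33 pairs that passed kept their call and direction in 245 of their comparisons and lost the call in 19, and the pairs that had not passed gained a call in 15. Sign changes under these settings occurred only in differences that had not passed: 3'SLN-LN-sp3 minus 3'SLN-LN-sp2 was 0.00658 with background subtracted and 0.0034 without mice BALB/c-44 and BALB/c-45, 3'SL-Asn minus 3'SL-sp4 was 0.0461 and 3'SL-Nle minus lactose-Nle was 0.19 with the floor at the buffer spots, and 3'SLN minus its GlcNAc-sulfated form was 0.0067 with log2(RFU + 500). Female minus male was 0.53 for 3-SiaTn after quantile normalization and -0.23 for GM1 with the floor at the buffer spots. 3'SiaLeC minus 3'SLN, which had not passed, was 0.05 without BALB/c-82, and GM1 minus GM2 was -0.11 without BALB/c-19 and -0.10 without BALB/c-70. The cause was not tested in any of these. Structures were compared within mice, whereas females and males were compared unpaired, as each label carries its own mouse number and names no pairing of the sexes. Levels under the buffer spots, and bright levels at which pixels saturate, limit what the arrays can show.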

Other observations

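The column that the authors' table labels as a median lay closer to a mean over arrays. For the 20 compounds its values differed from the mean over 20 arrays by a median of 1.17% and at most 7.94%, and from the median over 20 arrays by a median of 23.4% and at most 81.0%. For 3'SLN the authors' value was 5486 RFU, against a computed mean of 5482 RFU and a computed median of 1086 RFU, and for 3'SiaLeC it was 3968 RFU, against a mean of 4008 RFU and a median of 754 RFU. The authors' number of positive animals was the same as the count from the arrays for 19 of the 20 compounds, the exception being GM4, with 3 in the table and 4 on the arrays.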
